A study of Mus musculus with 6 samples.

Results

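The nuclear RNA polymerases of mouse B cells were followed through the transcripts of their subunits, taken as every gene named *Polr1*, *Polr2* or *Polr3* plus a letter. This gave 28 of the 55421 genes in the table. The pseudogene *Polr2k-ps* was left out by name. RNA polymerase I (Pol I) transcribes the large ribosomal RNA, Pol II the messenger RNAs and many small nuclear RNAs, and Pol III the transfer RNAs, the 5S ribosomal RNA and other short RNAs. Each enzyme has a catalytic core made of its 2 largest subunits, an assembly platform, a set of small subunits that all 3 enzymes hold in common, and a stalk. B cells that answer LPS and IL-4 grow in size and start to divide, which calls on all 3 enzymes. By enzyme, 3 of the genes encode subunits of Pol I alone (*Polr1a*, *Polr1b* and *Polr1e*), 8 belong to Pol II, 10 to Pol III, and 7 are shared. Of the shared genes, *Polr1c* and *Polr1d* serve Pol I and Pol III, and *Polr2e*, *Polr2f*, *Polr2h*, *Polr2k* and *Polr2l* serve all 3 enzymes.

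RNA-seq compared 3 wild-type (WT) with 3 hnRNPL-deficient mice, 1 library per mouse. WT mice carried CD21-cre and the Rosa mT/mG reporter, and hnRNPL-deficient mice carried hnRNPL F/F, a floxed allele of the splicing regulator hnRNPL, together with the same CD21-cre and reporter, all on a C57BL6/J background and, as males and females, older than 6 weeks. CD21-cre is active mainly in mature B cells, and the reporter turns GFP on in cells with Cre activity and in their progeny. Splenic B cells were cultured for 24 h with IL-4 at 5 ng/ml and LPS at 5 μg/ml, and RNA was extracted from sorted GFP+ cells.

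The values are reads per gene divided by a size factor for each library (normalized counts). Libraries held 40395186 to 75180749 reads on genes, with hnRNPL-deficient library 3 the shallowest. *Hnrnpl* itself ranged from 24174 to 25580 normalized counts in WT and from 1297 to 2178 in hnRNPL-deficient libraries, a mean of 6.74% of WT. B cell markers were abundant in all libraries, with summed levels of 246923 to 321999 in WT and 249461 to 300396 in hnRNPL-deficient cells, while *Cr2* was higher and *Ms4a1* lower. The summed markers of T, NK and erythroid cells reached at most 52.8 normalized counts. The 4 plasma cell markers summed to 14221 to 16488 in WT and 13373 to 16508 in hnRNPL-deficient libraries. Of these, *Jchain* was lower, with a mean of 84.1 in WT and 14.7 in hnRNPL-deficient cells (adjusted p = 0.0509 from limma). The 6 myeloid markers summed to 260 to 331 in WT and 1239 to 1382 in hnRNPL-deficient libraries, almost all from *Adgre1*. The part of these marker differences in the results below was not tested. *Xist*, the X-inactivation RNA of female cells, was high in 1 library of each group.

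In hnRNPL-deficient cells 6 of the 28 polymerase subunit transcripts were lower, by 21.3% to 28.6% of the WT mean, and the other 22 did not pass the test. Subunits of each enzyme were among those that fell: the second largest Pol I subunit *Polr1b*, the Pol II stalk pair *Polr2d* and *Polr2g*, the Pol III subunit *Polr3g*, and the shared subunits *Polr1c* and *Polr2h*. The largest subunits of the enzymes, *Polr1a*, *Polr2a* and *Polr3a*, were among those that did not pass. No subunit passed as higher, although *Polr2m* did so under 3 other scalings of the libraries.

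All 28 genes passed the filter on low values, a mean of at least 10 normalized counts over the 6 libraries. Log2(normalized count + 1) was tested with limma over all 17640 genes that passed, and a gene was called at a Benjamini-Hochberg adjusted p under 0.1. Fold changes below are on this log2 scale, hnRNPL-deficient minus WT, with the standard error (SE). By this test 6 subunits (21.4%) were lower, beside 7.97% of all genes tested, and 0 were higher, beside 10.0%. At an unadjusted p under 0.05 from limma, *Polr2m* was higher, and *Polr1d*, *Polr1e*, *Polr2f*, *Polr3d* and *Polr3e* were lower beside the 6 called. The share of all genes at this looser cutoff is not given here. With an adjusted p under 0.1 and a 1.5-fold minimum, 0 subunits were lower and 0 higher, beside 4.08% and 7.28% of all genes. The mean was lower in hnRNPL-deficient cells for 25 subunits (89.3%), beside 52.7% of all genes; with libraries scaled to equal totals it was lower for 21, beside 47.2%. All 3 hnRNPL-deficient libraries lay below all 3 WT libraries for 9 subunits (32.1%; 16.3% of all genes), and above them for 1 subunit (3.57%; 17.7% of all genes). The median fold change of the 28 genes was -0.17, with quartiles of -0.35 and -0.06. For all genes tested the median was -0.03, with quartiles of -0.28 and 0.28. The number of subunits called lower was 0 without WT library 2 (3.86% of all genes) and 1 without WT library 3 (3.83%). It was 2 without hnRNPL-deficient library 1 (5.54%) and 3 without WT library 1 (6.03%) or hnRNPL-deficient library 3 (5.68%). Without hnRNPL-deficient library 2 it was 5 (5.64%). The values are relative to all the RNA of a library, and less RNA per cell cannot be told apart from fewer cells that express a gene.

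**Figure D1:**
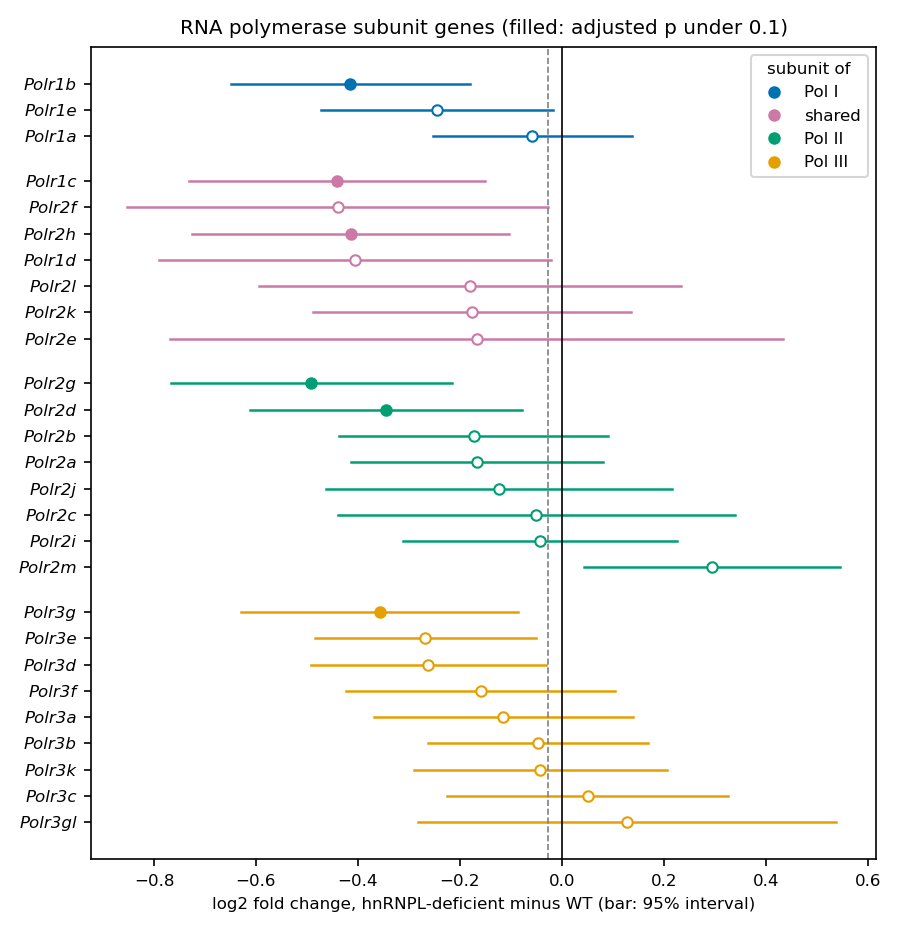
Log2 fold change (hnRNPL-deficient minus WT, x axis) of 27 subunit genes, grouped by enzyme, with 95% intervals from limma; filled points passed at an adjusted p under 0.1 and the dashed line is the median of all genes tested (-0.03). The 6 filled points lie between -0.49 and -0.35, and *Polr2m* is the gene farthest to the right, at 0.29.

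Among Pol I subunits, *Polr1b* fell and *Polr1a* did not pass. Their proteins, RPA135 and RPA194, together form the active site. *Polr1b* (chr2, 129100995 to 129126594 in GRCm38, the build of all coordinates here) had 7652, 8499 and 7462 normalized counts in WT libraries 1 to 3 and 5615, 6499 and 5609 in hnRNPL-deficient libraries 1 to 3. Each hnRNPL-deficient library thus lay below each WT library, and the mean was 24.9% lower (log2 fold change -0.42, SE 0.103, adjusted p = 0.0361 from limma). *Polr1a* had 12667, 12648 and 12435 in WT and 11612, 12696 and 11981 in hnRNPL-deficient cells. These groups overlapped, since hnRNPL-deficient library 2 was the highest of all 6 (log2 fold change -0.06, SE 0.086, adjusted p = 0.698 from limma). The ratio of *Polr1b* to *Polr1a*, chosen after the values were seen and therefore given with no test, was 0.604, 0.672 and 0.600 in WT and 0.484, 0.512 and 0.468 in hnRNPL-deficient libraries. *Polr1e* encodes RPA49, one partner of a heterodimer that acts in initiation and elongation. It had 2777, 2795 and 2639 in WT and 2382, 2443 and 2116 in hnRNPL-deficient cells, with no overlap, but did not pass (log2 fold change -0.24, SE 0.100, adjusted p = 0.156 from limma). *Polr1b* lost its call without WT library 2 (adjusted p = 0.141) and without hnRNPL-deficient library 1 (adjusted p = 0.113).

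The shared subunits had the lowest median of the 4 classes, -0.40, and all 7 had a lower mean in hnRNPL-deficient cells. *Polr1c* and *Polr1d* encode RPAC1 and RPAC2, which pair to form the assembly platform of Pol I and Pol III. *Polr1c* (chr17, 46243920 to 46248054) had 2316, 2458 and 2309 normalized counts in WT and 1897, 1901 and 1458 in hnRNPL-deficient libraries. The groups did not overlap and the mean was 25.8% lower (log2 fold change -0.44, SE 0.127, adjusted p = 0.0598 from limma). Its partner *Polr1d* had 2974, 3811 and 3276 in WT and 2416, 3199 and 2070 in hnRNPL-deficient cells. The mean was 23.6% lower, but hnRNPL-deficient library 2 lay above WT library 1 and the test was not passed (log2 fold change -0.40, SE 0.169, adjusted p = 0.162 from limma). *Polr1c* was no longer called without WT library 2 (adjusted p = 0.173), WT library 3 (adjusted p = 0.148) or hnRNPL-deficient library 3 (adjusted p = 0.102).

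Of the 5 genes common to all 3 enzymes, *Polr2h* (chr16, 20717665 to 20722267), which encodes RPABC3, passed the test. It had 1409, 1566 and 1288 normalized counts in WT and 1159, 1134 and 913 in hnRNPL-deficient libraries, without overlap and 24.8% lower in the mean (log2 fold change -0.41, SE 0.136, adjusted p = 0.0897 from limma). *Polr2f*, which encodes RPABC2, had a mean lower by nearly as much, 24.7%, with a larger spread between hnRNPL-deficient mice and a smaller one between WT mice. Its values were 966, 1028 and 1035 in WT and 664, 994 and 624 in hnRNPL-deficient cells. Library 2 of the hnRNPL-deficient group stood within the WT range, the other 2 far below it (log2 fold change -0.44, SE 0.181, adjusted p = 0.159 from limma), and without that library the fold change was -0.65 (adjusted p = 0.0342). *Polr2e*, *Polr2k* and *Polr2l* had log2 fold changes of -0.17, -0.18 and -0.18 and adjusted p of 0.719, 0.444 and 0.557 from limma. *Polr2e* had the largest coefficient of variation of the 28 genes in both groups, with values from 1044 to 1789 in WT and from 903 to 1753 in hnRNPL-deficient libraries. The call of *Polr2h* was lost when any 1 library was left out, with adjusted p of 0.116 to 0.248.

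Values of 10 subunit genes in each mouse are plotted from 0, so that the size of each fall can be read against the level of the gene.

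**Figure D2:**
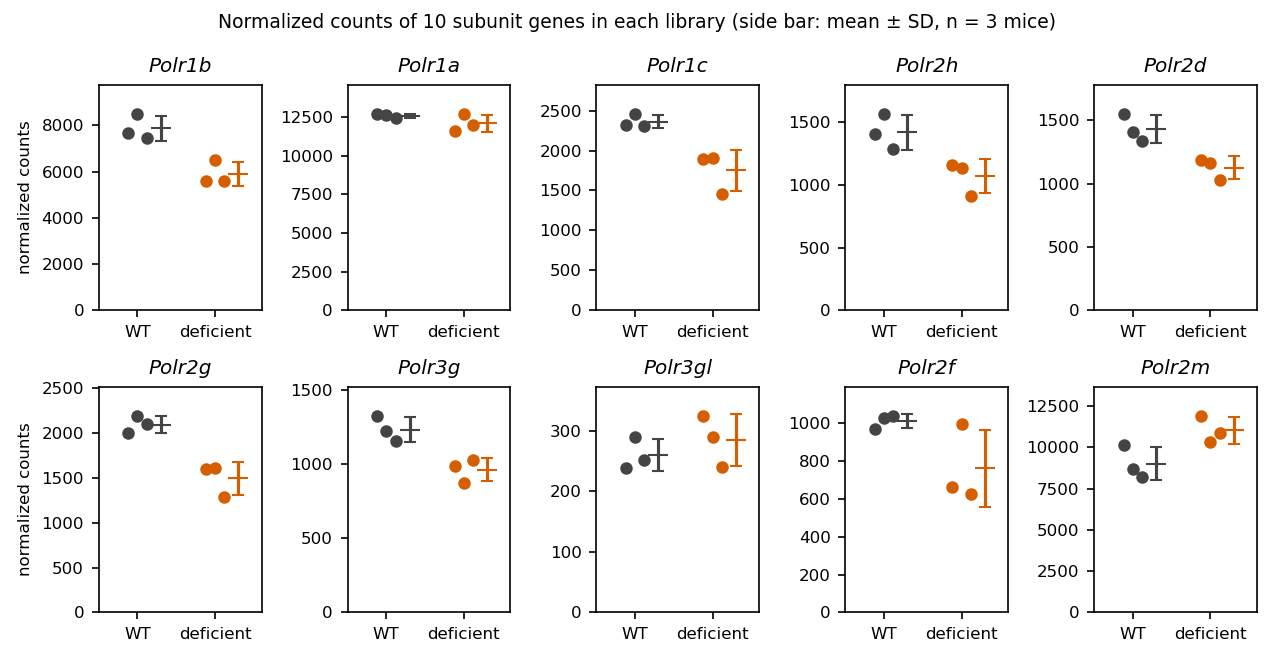
Normalized counts (y axis, from 0) of 10 subunit genes in each of 3 WT and 3 hnRNPL-deficient libraries (points, libraries 1 to 3 from left to right), with the mean ± SD of each group at the side. *Polr1b*, *Polr1c*, *Polr2h*, *Polr2d*, *Polr2g* and *Polr3g* are lower in all 3 hnRNPL-deficient libraries, *Polr1a*, *Polr3gl* and *Polr2f* overlap, and *Polr2m* is higher.

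Among Pol II subunits both genes of the stalk fell, and the catalytic and platform genes did not pass; the difference between them was not tested. The stalk, made of RPB4 (*Polr2d*) and RPB7 (*Polr2g*), sits beside the RNA exit channel and binds the emerging transcript. *Polr2g* (chr19, 8793127 to 8798577) had the largest fall of all 28 genes, with 1996, 2187 and 2098 normalized counts in WT and 1594, 1608 and 1284 in hnRNPL-deficient libraries. The groups were well apart and the mean was 28.6% lower (log2 fold change -0.49, SE 0.121, adjusted p = 0.0350 from limma). *Polr2d* (chr18, 31789159 to 31796701) had 1549, 1408 and 1334 in WT and 1188, 1163 and 1025 in hnRNPL-deficient cells. It also showed no overlap, and its mean was 21.3% lower (log2 fold change -0.35, SE 0.117, adjusted p = 0.0970 from limma). *Polr2g* lost its call without WT library 2 (adjusted p = 0.121) or WT library 3 (adjusted p = 0.118), and *Polr2d* lost its call without any 1 of the 6 libraries, with adjusted p of 0.141 to 0.207.

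The catalytic Pol II subunits are RPB1 (*Polr2a*), whose C-terminal tail coordinates transcription with RNA processing, and RPB2 (*Polr2b*). *Polr2a* had 43752, 35443 and 37668 normalized counts in WT and 35831, 34067 and 33840 in hnRNPL-deficient libraries. WT library 1 stood above the rest, and the groups overlapped (log2 fold change -0.17, SE 0.109, adjusted p = 0.362 from limma). The ratio of *Polr2g* to *Polr2a*, chosen after the values were seen and given with no test, was 0.0456, 0.0617 and 0.0557 in WT and 0.0445, 0.0472 and 0.0380 in hnRNPL-deficient libraries, so that these ratios overlapped. The ratio of *Polr2d* to *Polr2a* was chosen in the same way and not tested. It was 0.0354, 0.0397 and 0.0354 in WT and 0.0332, 0.0341 and 0.0303 in hnRNPL-deficient libraries, without overlap. *Polr2b* had the same pattern as *Polr2a*, with 16030 in WT library 1 and 12960 to 13170 in the other 2 WT libraries. It had 11609 to 13589 in hnRNPL-deficient cells (adjusted p = 0.375 from limma). The platform genes *Polr2c* and *Polr2j*, which encode RPB3 and RPB11, and *Polr2i*, which encodes the cleavage and fidelity subunit RPB9, had log2 fold changes of -0.05, -0.12 and -0.04, with adjusted p of 0.873, 0.631 and 0.841 from limma. *Polr2i* lies 1.41 Mb from *Hnrnpl* on chromosome 7, and its 95% interval ran from -0.31 to 0.22.

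*Polr2m* was the only one of the 28 genes with all hnRNPL-deficient libraries above all WT libraries. It encodes GDOWN1, which attaches to Pol II and is known to block initiation by competing with TFIIF. WT libraries 1 to 3 held 10116, 8692 and 8206 normalized counts, and hnRNPL-deficient libraries 11887, 10316 and 10866. The gap was narrow, from 10116 to 10316, and *Polr2m* did not pass (log2 fold change 0.29, SE 0.110, adjusted p = 0.125 from limma). It did pass when the libraries were scaled by TMM (adjusted p = 0.0976), to equal totals (adjusted p = 0.0424) or by quantiles (adjusted p = 0.0167), and without WT library 1 (adjusted p = 0.0608). With each of these scalings at least 10.1% of all genes were called higher. Scaling to equal totals also moved the median fold change of all genes from -0.027 to 0.028.

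In Pol III, 1 of 10 genes passed as lower, a share near the 7.97% of all genes. The class median was -0.14, against -0.03 for all genes. *Polr3g* and *Polr3gl* encode alternative forms of the subunit RPC7, which joins RPC3 and RPC6 in the trimer that opens the promoter; *Polr3g* is the form known from stem and proliferating cells. *Polr3g* (chr13, 81673843 to 81711013) had 1325, 1223 and 1157 normalized counts in WT and 986, 876 and 1032 in hnRNPL-deficient libraries. It was 21.9% lower in the mean with no overlap (log2 fold change -0.36, SE 0.119, adjusted p = 0.0933 from limma). *Polr3gl* was the gene of lowest count, with 238, 289 and 251 in WT and 324, 290 and 240 in hnRNPL-deficient cells, and it overlapped (log2 fold change 0.13, SE 0.180, adjusted p = 0.682 from limma). The ratio of *Polr3g* to *Polr3gl* was 5.57, 4.23 and 4.61 in WT and 3.05, 3.02 and 4.30 in hnRNPL-deficient libraries. Library 3 of the hnRNPL-deficient group reached the WT range, and the log2 ratio differed by -0.49 with p = 0.2 in a two-sided exact permutation test, for which 3 against 3 mice allow no p under 0.1. *Polr3g* kept its call only when hnRNPL-deficient library 3 was the library left out (adjusted p = 0.0956), and the other 5 omissions gave adjusted p of 0.163 to 0.248.

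The heterodimer of RPC4 (*Polr3d*) and RPC5 (*Polr3e*), which acts in termination and reinitiation, had lower values for both genes without passing the test. *Polr3d* had 1765, 1824 and 1741 normalized counts in WT and 1399, 1475 and 1575 in hnRNPL-deficient libraries. *Polr3e* had 2963, 3299 and 3065 in WT and 2471, 2639 and 2633 in hnRNPL-deficient cells. For both genes every hnRNPL-deficient library was below every WT library, with log2 fold changes of -0.26 and -0.27 (SE 0.101 and 0.095) and adjusted p of 0.136 and 0.110 from limma. The catalytic subunits RPC1 (*Polr3a*) and RPC2 (*Polr3b*) had log2 fold changes of -0.11 and -0.05, and the trimer subunits RPC3 (*Polr3c*) and RPC6 (*Polr3f*) had 0.05 and -0.16, with adjusted p of 0.414 to 0.819 from limma. *Polr3k*, the gene of the cleavage subunit RPC10, had a mean 2.90% lower with overlapping groups (adjusted p = 0.830 from limma).

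The fall was not of one size in all mice, and this can be read class by class. Averaged over the 7 shared genes, the log2 difference from the WT mean was -0.14, 0.16 and -0.01 in WT libraries 1 to 3 and -0.31, -0.05 and -0.59 in hnRNPL-deficient libraries 1 to 3. Library 3 of the hnRNPL-deficient group thus lay lowest and library 2 inside the WT range. For the 10 Pol III genes the 3 hnRNPL-deficient libraries were close together, at -0.12, -0.13 and -0.15, against 0.01, 0.04 and -0.06 in WT. The 3 Pol I genes averaged -0.27, -0.14 and -0.31 in hnRNPL-deficient libraries, all below the WT values of 0.00, 0.05 and -0.05. The 8 Pol II genes averaged -0.06, -0.06 and -0.29 against 0.06, -0.01 and -0.05. Across the 28 genes, which are not independent replicates, the deviations from the group mean had Pearson correlations with transcript GC content of 0.63 in hnRNPL-deficient library 2 and -0.47 in library 3, and of -0.44 to 0.48 in WT libraries. For the fold change itself this correlation was -0.10, and the part of GC content in the spread between mice was not tested. Without hnRNPL-deficient library 3 the median of the shared genes was -0.26 and that of the Pol II genes -0.07.

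**Figure D3:**
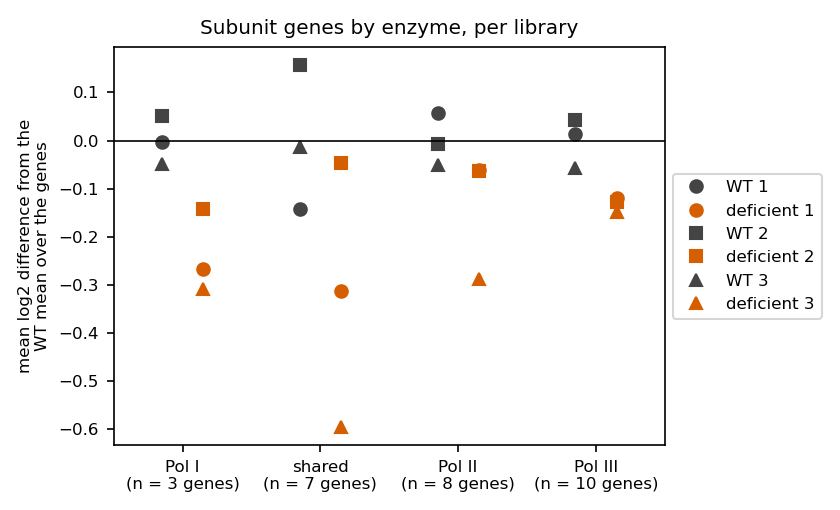
Mean log2 difference from the WT mean (y axis) over the genes of each class, for WT libraries (grey) and hnRNPL-deficient libraries (orange); the shape of a point gives the library number. The 3 hnRNPL-deficient libraries run from -0.59 to -0.05 for the shared genes and only from -0.15 to -0.12 for the Pol III genes.

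Levels were compared between genes per kilobase of exon. *Polr2a* was the highest subunit in WT, with 5512 ± 609 normalized counts per kb (SD, n = 3), followed by *Polr2m* with 3715 ± 410 and *Polr2b* with 3011 ± 368. Next came *Polr2g* (1679 ± 76.8), *Polr2j* (1664 ± 108), *Polr3c* (1537 ± 204) and *Polr2d* (1409 ± 108), in which each level lay within the larger SD of its neighbour. The catalytic genes of Pol I were lower, with 1356 ± 95.1 for *Polr1b* and 1060 ± 10.8 for *Polr1a*. In hnRNPL-deficient cells both stood close together, at 1018 ± 88.3 and 1019 ± 46.4. This closeness depends on the length used: their exons cover 5805 and 11871 bases, their longest protein-coding transcripts 3998 and 9216. The catalytic genes of Pol III were lower again in WT, with 797 ± 43.5 for *Polr3b* and 561 ± 57.4 for *Polr3a*. Low levels were those of *Polr3g* (314 ± 21.5), *Polr2c* (310 ± 30.7) and *Polr3gl* (162 ± 16.6). Exon length was taken over all annotated transcripts of a gene, so a gene with long rare exons has too low a value per kb.

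**Figure D4:**
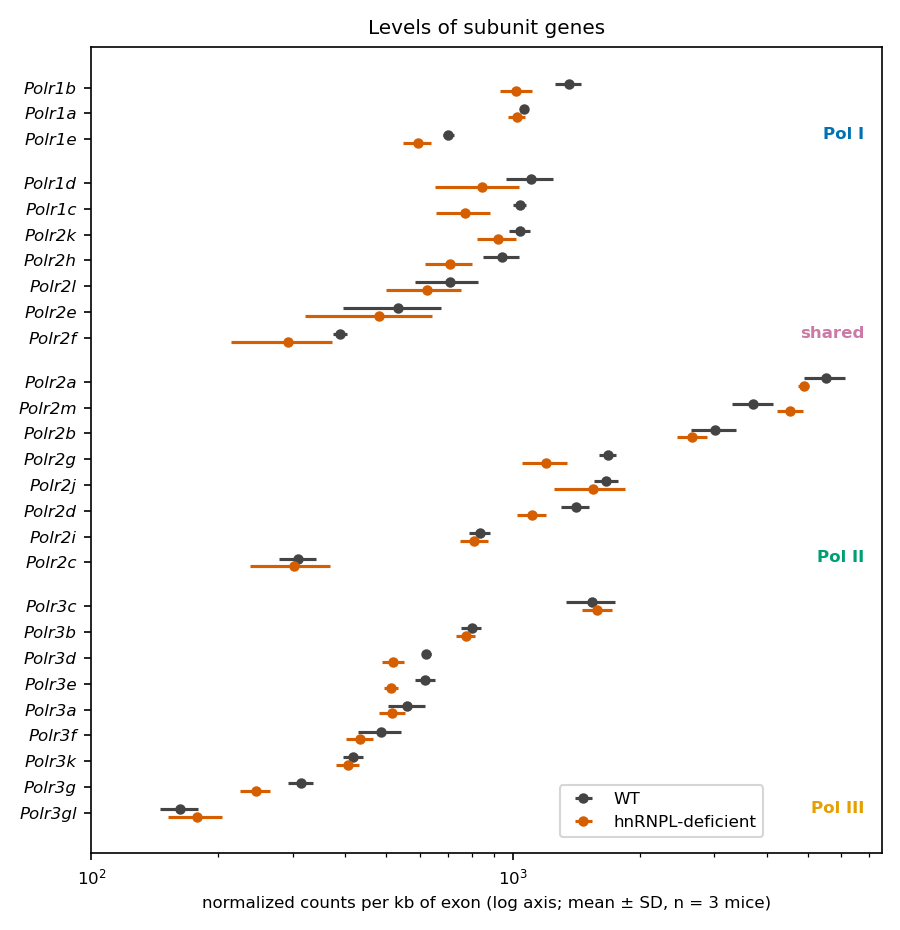
Normalized counts per kb of exon (x axis, log scale) of 27 subunit genes, as mean ± SD of 3 WT (grey) and 3 hnRNPL-deficient (orange) libraries, ordered by WT level within each class. Levels in WT run from 162 for *Polr3gl* to 5512 for *Polr2a*.

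Promoter sequences were inspected for the genes that fell. The windows of RefSeq (GRCm38.p6) cover 250 bases before each start and 50 after it, and 22 of the 28 genes had an entry, with 24 windows. They were searched on both strands for the E-box CACGTG, bound by MYC and related factors, for the palindromic NRF1 site and for CCGGAAG, the core bound by ETS factors. The E-box was in 4 windows (*Polr2h*, *Polr3c*, *Polr3e* and *Polr3gl*), or 16.7%, and in 7.15% of 32851 windows of all genes. The ETS core was in 7 windows (*Polr1c*, *Polr1e*, *Polr2c*, *Polr2f*, *Polr2j*, *Polr3b* and *Polr3g*), or 29.2%, and in 8.86% of all windows. The NRF1 site was in 0 windows and in 0.971% of all. These matches are descriptions of the letters. The windows of the 4 genes that fell and have an entry (for *Polr2h* the first of 2) are printed below from 250 bases before the start to 30 bases from it, 5′ to 3′, with an E-box or ETS core in capitals. The ETS core begins 42 bases before the start in *Polr1c* and, read on the opposite strand, 29 bases before it in *Polr3g*. The E-box of *Polr2h* begins 23 bases after the start, and *Polr1b* holds none of the 3 motifs.
Polr1b, chr2:129100746-129101025, plus strand: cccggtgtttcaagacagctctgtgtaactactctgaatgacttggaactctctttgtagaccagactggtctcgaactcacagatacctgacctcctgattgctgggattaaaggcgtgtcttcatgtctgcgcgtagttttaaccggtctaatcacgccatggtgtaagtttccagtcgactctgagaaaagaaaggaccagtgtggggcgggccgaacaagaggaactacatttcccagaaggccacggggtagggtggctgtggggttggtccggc
Polr1c, chr17:46248016-46248295, minus strand: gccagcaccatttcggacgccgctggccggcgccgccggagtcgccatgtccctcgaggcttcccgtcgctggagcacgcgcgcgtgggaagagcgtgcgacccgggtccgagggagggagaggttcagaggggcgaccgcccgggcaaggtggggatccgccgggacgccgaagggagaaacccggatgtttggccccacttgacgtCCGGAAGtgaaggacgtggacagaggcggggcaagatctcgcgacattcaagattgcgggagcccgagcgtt
Polr2h, chr16:20717576-20717855, plus strand: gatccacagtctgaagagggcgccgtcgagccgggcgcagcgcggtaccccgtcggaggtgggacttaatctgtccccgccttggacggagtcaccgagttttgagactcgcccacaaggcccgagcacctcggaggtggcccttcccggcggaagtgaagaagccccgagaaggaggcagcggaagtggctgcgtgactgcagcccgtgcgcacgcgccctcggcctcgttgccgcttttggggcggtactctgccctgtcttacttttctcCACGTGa
Polr3g, chr13:81710984-81711263, minus strand: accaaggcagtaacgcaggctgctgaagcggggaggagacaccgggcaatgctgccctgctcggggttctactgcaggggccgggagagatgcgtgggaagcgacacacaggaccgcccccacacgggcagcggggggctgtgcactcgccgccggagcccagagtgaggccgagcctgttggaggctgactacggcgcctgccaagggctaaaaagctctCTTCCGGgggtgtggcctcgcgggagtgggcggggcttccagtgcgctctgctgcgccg

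Genes of the wider transcription machinery were called no more often than genes in general. Of 119 genes tested in 6 lists (Pol I factors, Pol II general factors, Pol II pausing and elongation factors, Pol III factors, assembly factors, and mitochondrial transcription, which is run by a separate single-subunit polymerase), 9 (7.56%) were lower, beside 7.97% of all genes, and 5 (4.20%) higher, beside 10.0%. Their median log2 fold change was -0.02, against -0.03 for all genes. The single genes that passed are described for their roles. Of the 4 subunits listed under other symbols, *Cd3eap*, the gene of RPA34 and partner of *Polr1e* in its heterodimer, fell, from 1567, 1772 and 1633 normalized counts in WT to 1123, 1332 and 998 in hnRNPL-deficient libraries. No library of one group overlapped the other (log2 fold change -0.53, SE 0.132, adjusted p = 0.0362 from limma). The Pol I stalk gene *Twistnb*, the Pol I cleavage subunit *Znrd1* and the Pol III stalk gene *Crcp* had 0.03, 0.11 and 0.01, with adjusted p of 0.728 to 0.953 from limma.

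Of 8 Pol I initiation and termination factors, 1 (12.5%) was lower and 1 (12.5%) higher, beside 7.97% and 10.0% of all genes. *Ubtf*, the architectural factor of active ribosomal DNA, had 8458, 10384 and 9363 normalized counts in WT and 6479, 8098 and 6139 in hnRNPL-deficient libraries. Its log2 fold change was -0.45 (adjusted p = 0.0604 from limma). *Taf1d*, a subunit of the promoter selectivity factor SL1, was higher, at 0.30 (adjusted p = 0.0848 from limma). Of 18 Pol III initiation factors, counted together with *Maf1*, 1 (5.56%) was lower and 2 (11.1%) were higher, beside 7.97% and 10.0% of all genes. *Gtf3c2*, a subunit of TFIIIC, had a log2 fold change of -0.46 (adjusted p = 0.0170 from limma), and *Snapc5*, of the SNAPc complex, had 0.52 (adjusted p = 0.0672 from limma). *Maf1* encodes the repressor of Pol III. It had 877, 1148 and 1178 normalized counts in WT and 1427, 1644 and 1349 in hnRNPL-deficient libraries, without overlap (log2 fold change 0.47, adjusted p = 0.0771 from limma).

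For Pol II, 3 of 34 general transcription factors (8.82%, beside 7.97% of all genes) were lower and 0 higher, beside 10.0%. These were subunits or associates of TFIID, namely *Taf4b* (-0.65, adjusted p = 0.00513 from limma), *Taf11* (-0.57, adjusted p = 0.0805) and *Taf15* (-0.33, adjusted p = 0.0434). Of 40 pausing and elongation factors tested, 2 (5.00%) were lower and 2 (5.00%) higher, both shares below those of all genes (7.97% and 10.0%). *Tcea2*, a form of the elongation factor TFIIS with few counts here (92.8 to 133 in WT, 31.5 to 62.6 in hnRNPL-deficient libraries), had -1.31 (adjusted p = 0.0315 from limma), and *Iws1* had -0.26 (adjusted p = 0.0971). *Aff1*, a scaffold of the super elongation complex, rose from 6687, 6952 and 6782 to 10880, 11962 and 12121 normalized counts (0.77, adjusted p = 0.00180 from limma), and *Supt20*, listed with these factors although it is known as a subunit of the SAGA coactivator complex, had 0.33 (adjusted p = 0.0444). Of 15 factors for polymerase assembly and import (median -0.17), 2 (13.3%) were lower and 0 higher, beside 7.97% and 10.0% of all genes. Both belong to the R2TP and prefoldin-like machinery that helps to put the enzymes together. *Pih1d1* had 512, 688 and 621 normalized counts in WT and 328, 419 and 314 in hnRNPL-deficient libraries (-0.78, adjusted p = 0.0266 from limma), and *Uri1* fell by 0.47 on the log2 scale (adjusted p = 0.0645). With 1 library left out at a time, *Taf4b*, *Aff1* and *Gtf3c2* passed in all 6 fits, *Pih1d1* in 5, *Cd3eap* and *Tcea2* in 4, *Supt20* in 3, *Ubtf*, *Taf15*, *Snapc5* and *Uri1* in 2, *Taf11* and *Maf1* in 1, and *Taf1d* and *Iws1* in 0.

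**Figure D5:**
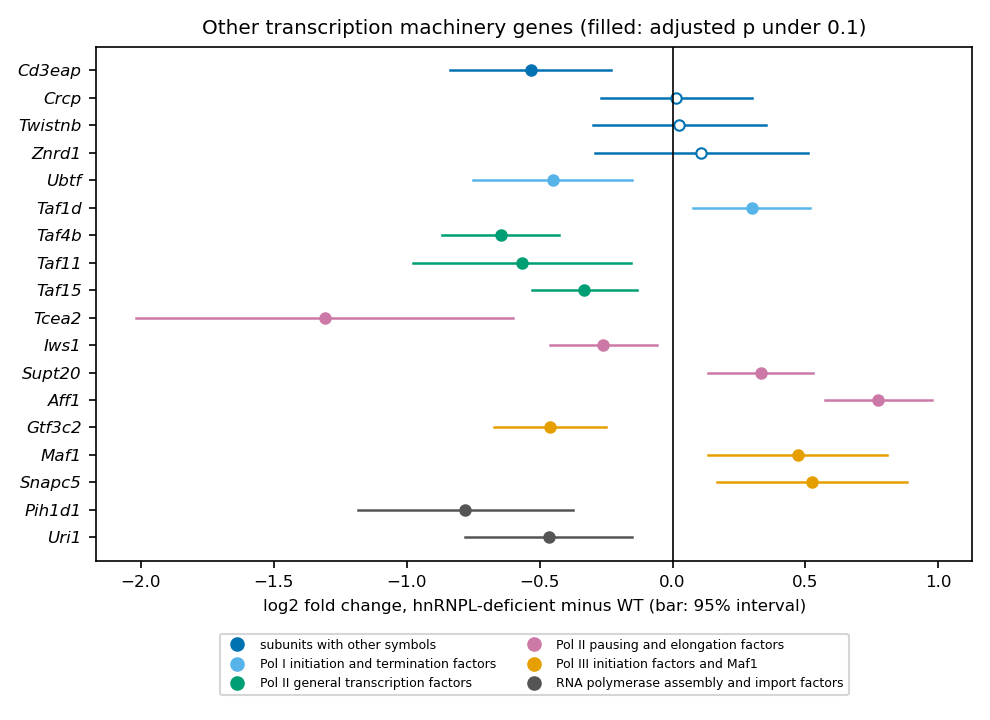
Log2 fold change (hnRNPL-deficient minus WT, x axis) with 95% intervals for the genes of the machinery lists that passed at an adjusted p under 0.1 (filled) and for the subunits known by other symbols (open where not passed); colours give the list. The points run from -1.31 for *Tcea2* to 0.77 for *Aff1*.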

How the data were processed

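RNA-seq of splenic B cells from 3 WT and 3 hnRNPL-deficient mice was used, with groups taken from the labels. Per the study's methods and processing notes, the authors trimmed reads with fastp 0.23.1, aligned them to mm10 with STAR 2.7.9a, counted them per gene by strand with featureCounts (GENCODE annotation), and divided the counts by DESeq2 1.38.2 size factors. The deposited signal is this normalized count per gene and mouse. The deposited columns with the authors' own DESeq2 results (log2 fold changes with their errors, test scores and p-values) were not used. Since the values are relative, a change in total RNA per cell is not seen.

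Log2(normalized count + 1) was tested with limma 3.58.1 in R 4.3.3, with a trend of variance on the mean, over the genes averaging 10 or more normalized counts, and adjusted by Benjamini-Hochberg over all 17640 genes. The thresholds (adjusted p under 0.1, with or without 1.5-fold) follow the study's methods. P-values measure the spread between 3 mice a group.

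All values (100% per library) were whole multiples of the smallest one, within 0.01. For hnRNPL-deficient library 2 the step lies close to 1 and the automatic check of whole reads did not read it, so edgeR 4.0.16 and DESeq2 1.42.0 were run as alternatives on the other 5 libraries. The other alternatives were pseudocounts of 0.5 and 5, a minimum mean of 50 or none, equal totals, TMM and quantile scaling, no trend, a replicate block, an adjusted p under 0.05, each library left out, and a sex covariate, added after seeing the data. The scripts were tested on simulated data.

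The members, gene lists and tests were chosen with earlier results of these data known. Named genes are the members (the values of 1 of the 28 are not reported here), *Hnrnpl*, the subunits with other symbols, and in each machinery list up to 3 called genes per direction by size of change. Markers are named from fixed lists. Coordinates and exon lengths come from GENCODE on GRCm38, in an earlier release than the authors', and promoters from RefSeq (GRCm38.p6). No exon of a subunit gene overlapped another gene on its strand. Reads of *Polr2k* and its pseudogene could be shared, so its values are uncertain.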

Additional observations from a re-analysis of the deposited data

How the results depend on the processing

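The 6 subunits called lower, beside 7.97% of all genes, became 3 with TMM scaling (7.06%) or with no filter on low values (3.83%). They also became 3 with a sex covariate (6.83%), added after seeing the data. With no mean-variance trend (5.84%) or at an adjusted p under 0.05 (4.68%) there were 2. With the replicate block 11 were lower and 1 higher, while 16.5% of all genes were then lower and 16.4% higher; deviations of same-numbered libraries correlated at 0.43, 0.32 and 0.07 over all genes tested, and WT library 3 correlated best with hnRNPL-deficient library 2 (0.30), so the numbers were not used as pairs. Leaving out 1 library gave 0 to 5 lower and 0 to 1 higher, beside 3.83% to 6.03% and 5.33% to 8.54% of all genes. *Polr2m* was the 1 subunit called higher with TMM, equal totals, quantile scaling or the block. Of all genes, 10.6% were called higher with TMM, 10.1% with quantile scaling and a larger share than either with equal totals. With the 1.5-fold minimum DESeq2 on 5 libraries called 1 lower (*Polr2f*), beside 2.42% of all genes, and edgeR 2 (*Polr1d* and *Polr2f*), beside 3.83%. With that minimum, leaving out 1 library gave 0 to 1, beside 2.74% to 3.94% of all genes. Both count tools called 5 lower with no fold minimum, *Polr1b*, *Polr1c*, *Polr1d*, *Polr2f* and *Polr2g*. The shares of all genes were 4.0% with DESeq2 and 6.02% with edgeR. Both tools were run without hnRNPL-deficient library 2. Without that library limma called the same 5 genes (5.64% of all genes), and 1, *Polr2f*, with the 1.5-fold minimum. The Pol III median was -0.082 with equal totals, -0.062 with quantile scaling, and -0.19 to -0.11 with 1 library left out. Means were lower for 21 of the 28 genes with equal totals and for 23 with quantile scaling.

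Of the fold changes of single subunits, 429 kept direction and call, 17 gained and 44 lost the call, and 14, over 8 genes of which none was called, changed sign. With equal totals these were *Polr2c* (0.0045), *Polr2i* (0.012), *Polr3b* (0.0079) and *Polr3k* (0.012), and with quantile scaling *Polr1a* (0.069) and *Polr3b* (0.037). With 1 library left out the values ran from -0.18 to 0.13 for *Polr2c*, -0.42 to 0.061 for *Polr2e*, -0.091 to 0.019 for *Polr2i*, -0.26 to 0.016 for *Polr2j* and -0.033 to 0.15 for *Polr3c*. The cause of these changes was not tested. Each of the 28 genes had at least 238 normalized counts in every library, and the number of mice, 3 a group, sets the precision.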
